A study of Rattus norvegicus with 6 samples.

Results

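The interleukin and TNF superfamily genes are described here in the kidneys of rats fed a standard or an ammonia-raising diet. Members were all genes whose symbol in the deposited files begins with Il and a digit, with Tnfsf (TNF superfamily ligands) or with Tnfrsf (TNF receptor superfamily). The rule gave 98 of the 17051 genes listed, of which 73 were interleukin and 25 were TNF superfamily genes. Kidney tissue of 6 male Sprague Dawley rats was sequenced, 3 on standard chow ad libitum (the AL group, rats 61, 71 and 88) and 3 on the hyperammonemic diet (the HD group, rats 64, 67 and 69). In the HD group a mixture of amino acids resembling the composition of hemoglobin was added to the powdered chow for a week. The diet was meant to raise renal ammonia production in rats with a normal liver, and the kidneys were taken after anesthesia and urine and blood sampling in both groups. The comparison asks how the renal levels of these signaling genes differed between the diets.

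Interleukins are secreted signals between leukocytes and between leukocytes and tissue cells. Most of their receptors are assembled from a chain that recognizes the ligand and a shared chain that signals through JAK kinases and STAT factors, while the receptors of the interleukin-1 family signal through MyD88 and IRAK kinases to NF-kappaB. The ligands of the TNF superfamily act on receptors that recruit TRAF adaptors or death domain proteins, and soluble binding proteins in both families capture ligands. In the kidney, tubular, stromal and endothelial cells express some of the receptors and a few of the ligands, and resident leukocytes express many others.

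The authors estimated transcript counts with RSEM, which were summed per gene here. Total counts ranged from 12499945 to 30466461 in a rat, with the lowest and the highest total both in the HD group (rats 64 and 69). The members together held between 0.164% and 0.178% of a rat's counts in the AL group and between 0.167% and 0.176% in the HD group, so the summed share overlapped between the diets. Levels of different genes are compared in TPM, which accounts for transcript length, and levels of 1 gene between rats in CPM, counts scaled to a common library size after TMM normalization. Where 1 gene is compared between rats in TPM, the unit is named. Markers of the proximal tubule, the most abundant cell type of the kidney cortex, summed to 3545 to 3939 TPM in the AL and to 4229 to 4857 TPM in the HD rats, so every HD rat was above every AL rat in this sum. In CPM, 2 of the 5 markers (Slc34a1 and Aqp1) were separated this way. The other 3 (Lrp2, Cubn and Slc5a2) overlapped, and Cubn was lower in the HD group by sign (log2 fold change -0.05). Marker sums of other cells are given below.

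Most ligands were below the level needed for a comparison and most receptors above it. The minimum for a test, 30 counts or more in any rat, was reached by 10 of 42 ligands, 31 of 49 receptors and 3 of 7 antagonists or binding proteins, against 67.8% of all listed genes. Of the 54 members that were not tested, 13 were at 0 in all 6 rats, among them Il2, Il4, Il5 and Il13, which T helper cells secrete. Another 26 stayed below 10 counts in every rat. The classic inflammatory cytokine Il6 had 0, 2 and 0 counts in AL rats 61, 71 and 88 and 2, 0 and 1 counts in HD rats 64, 67 and 69. Il10, an anti-inflammatory cytokine, had 1 count in rat 67 and 0 in the other rats. Counts this low allow no comparison between the diets, and a difference in these cytokines was not detectable at this depth. The remaining 15 members reached between 10 and 29 counts in a rat. Tnfsf13b (BAFF), a survival factor of B cells, was among them with 8.16, 9.01 and 14.5 counts in AL rats 61, 71 and 88 and 0, 12.1 and 13.0 counts in HD rats 64, 67 and 69. The members nearest to the minimum were Il18r1 with a highest count of 26.0 and Tnfrsf4 with 22.0 outside it, and Il17rd with 32.0 and Tnfsf15 with 33.0 inside it. The minimum was reached in both groups by 39 members. It was reached in AL rats alone by 5 members (Il10ra, Il17rd, Il2rb, Tnfrsf25 and Tnfsf15), a selection that favors lower values in the HD group for them. In 4 of the 5 rat 71 was the only rat that reached it, and in Tnfsf15 it was rat 88.

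**Figure D1:**
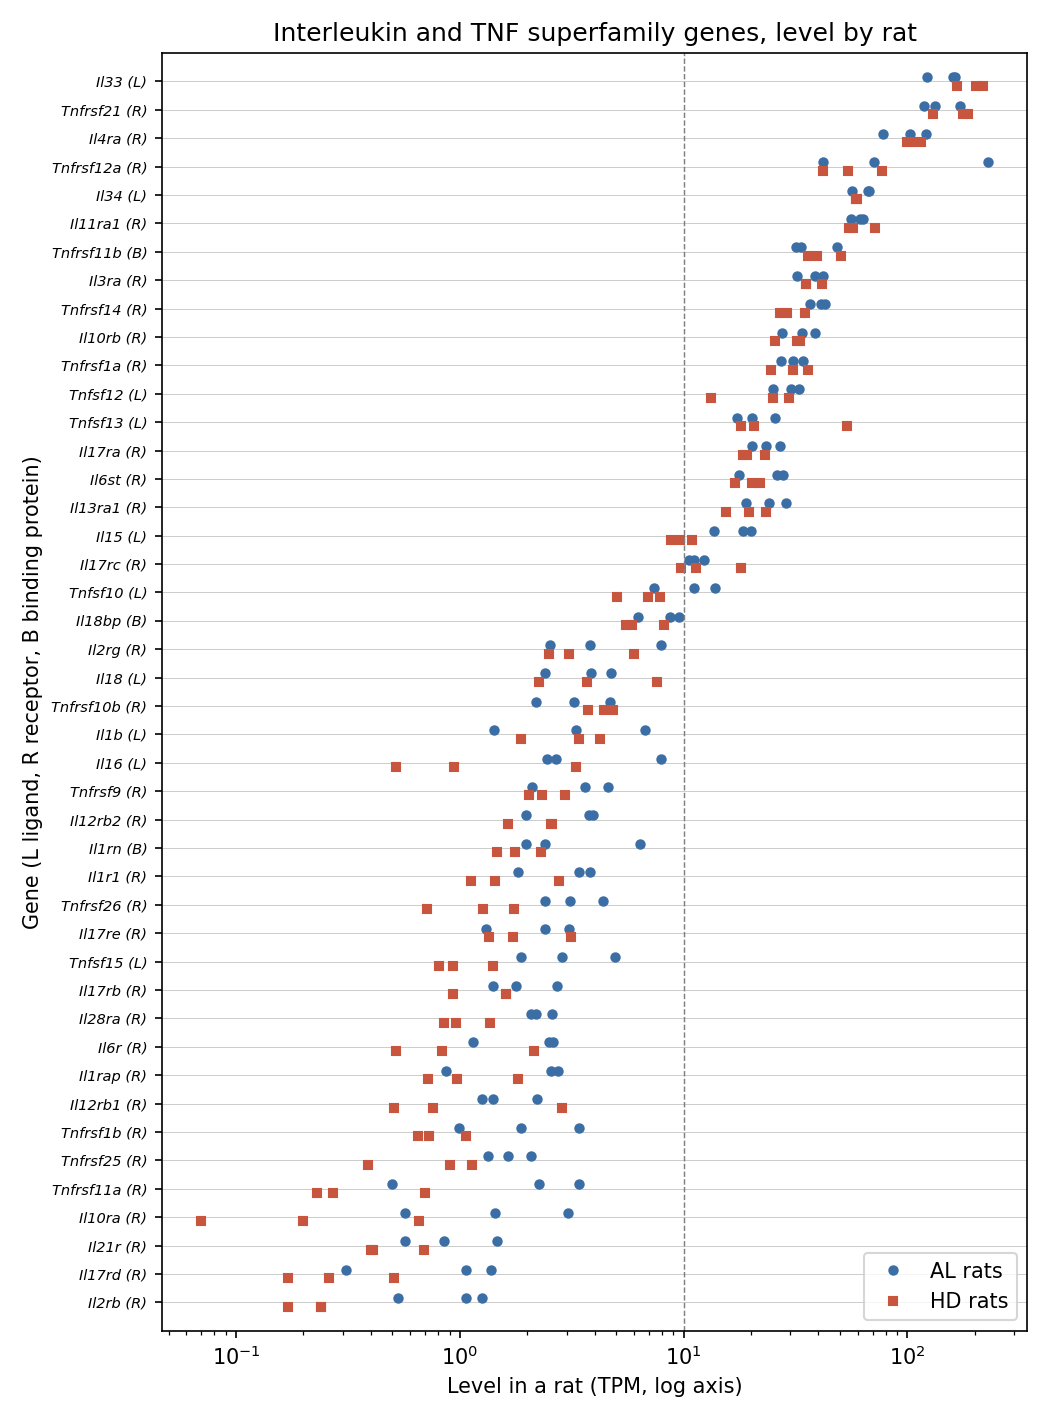
Level of each of the 44 tested members in each rat in TPM on a log axis, ordered by the mean over the 6 rats, with circles for AL rats, squares for HD rats and a dashed line at 10 TPM. Il33 and Tnfrsf21 stand at the top. The AL and HD rats overlap in most members above the line, but not in Il33, Tnfrsf14 and Il15. In many members below the line the HD rats lie to the left.

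None of the 44 tested members differed between the diets after adjustment over all 11553 tested genes. With edgeR's quasi-likelihood test, 0 members were called at an adjusted *P* value of 0.05 (background: 0% of all tested genes), and the smallest adjusted *P* value of a member was 0.368. DESeq2 also gave 0 members past this threshold, where it called 1.58% of all genes, and its smallest adjusted *P* value of a member was 0.0957. At an unadjusted *P* value below 0.05, edgeR gave 8 members (18.2%) against 10.6% of all tested genes. All 8 were lower in the HD group, where the background is 5.94%, and 0 were higher, where it is 4.66%. DESeq2 gave 10 members at this value, against 11.5% of all genes with a value, namely the same 8 with Il16, which was lower in the HD group, and Il33, which was higher. Among the 39 members that reached the minimum count in both groups, edgeR gave 5 (12.8%), close to the 9.98% of all genes that did so. By the sign of the fold change, 33 of the 44 members were lower in the HD group, where the background over all tested genes is 48.7%, but this count holds the 5 members that the minimum selected through AL rats. Without them, 28 of 39 members (71.8%) were lower, against 49.0% of all genes that reached the minimum in both groups, and the median log2 fold changes were -0.22 and 0.0052.

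Ligands and receptors leaned the same way. Of the 10 tested ligands 7 were lower in HD rats (median log2 fold change -0.26), and of the 31 tested receptors 24 were lower (median -0.41). Over all tested genes 48.7% were lower. The receptor median was -0.13 without rat 71 and -0.23 when every rat had to reach 10 counts. Among members that reached the minimum in both groups, 6 of 9 ligands (median -0.19) and 20 of 27 receptors (median -0.22) were lower. Below an unadjusted *P* value of 0.05 there were 2 ligands and 6 receptors in all, and 1 ligand (11.1%) and 4 receptors (14.8%) among those. Of all genes that reached the minimum in both groups, 49.0% were lower and 9.98% were below this *P* value. Between the families, 23 of 29 interleukin genes and 10 of 15 TNF superfamily genes were lower, with medians of -0.22 and -0.41. These figures hold the members that the minimum selected through AL rats alone, all of them lower. They are Il10ra, Il17rd and Il2rb among the interleukin genes and Tnfrsf25 and Tnfsf15 in the TNF superfamily. Family figures without them were not made. No difference between ligands and receptors or between the families was tested.

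The members also differed by their level. Of the 18 members with a mean of at least 10 TPM, 9 were higher and 9 lower in HD rats, and their median log2 fold change was 0.01. The 26 members below 10 TPM included all 5 that reached the minimum count in AL rats alone. Of the other 21, 19 (90.5%) were lower, with a median of -0.60, and 4 (19.0%) had an unadjusted *P* value below 0.05. Over all genes that reached the minimum in both groups, 62.1% of those below 10 TPM were lower, with a median of -0.11, and 12.1% had such a *P* value. The line at 10 TPM was drawn after the values were seen, so it describes these rats and was not tested. The summed level of the 18 abundant members lay between 1404 and 1648 CPM in the AL rats and between 1643 and 1775 CPM in the HD rats. That of the 26 scarce members, with those 5 included, was 67.6, 120 and 88.5 CPM in AL rats 61, 71 and 88 and 47.3, 59.5 and 68.1 CPM in HD rats 64, 67 and 69. Rats 71 and 88 were the highest in this sum, and rat 61 of the AL group lay just below rat 69 of the HD group.

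**Figure D2:**
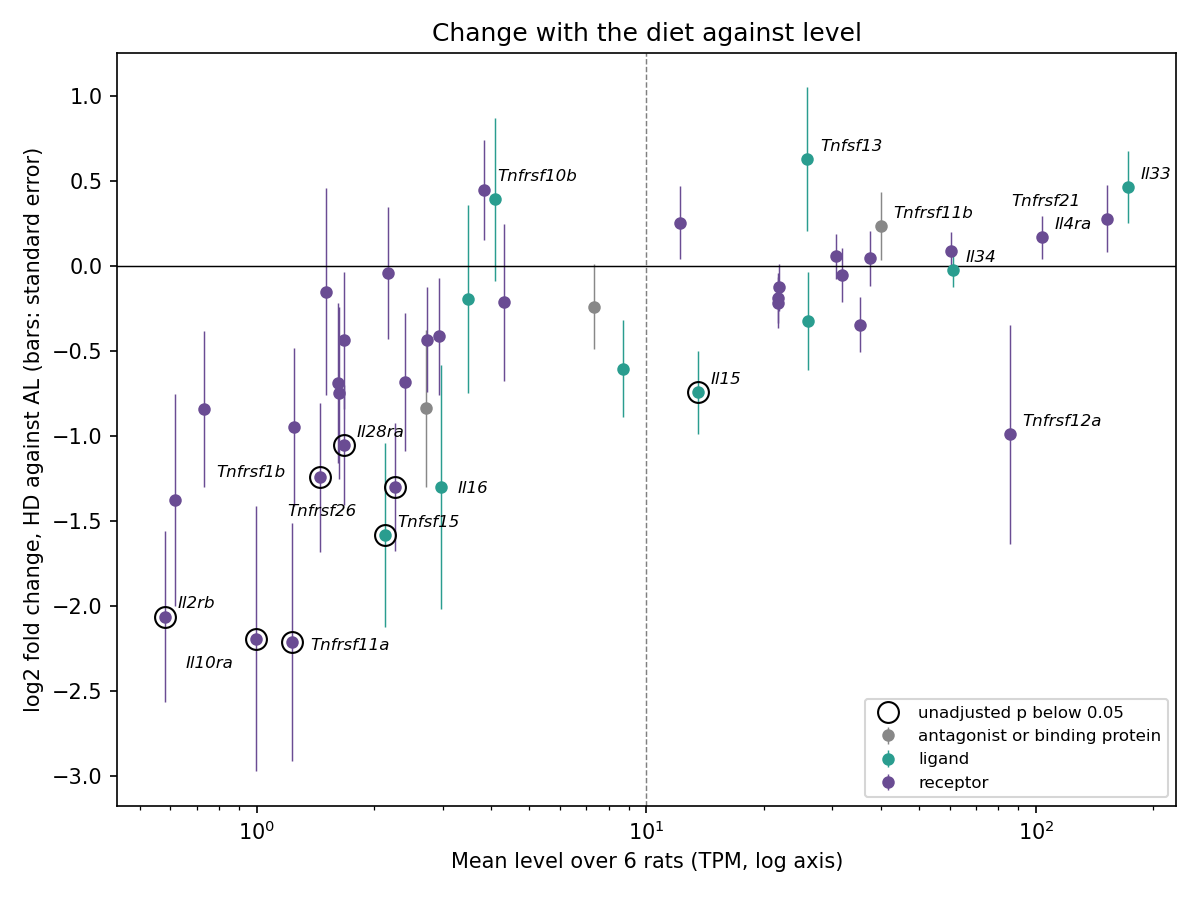
Log2 fold change of the HD against the AL group, with its standard error, over the mean level in TPM on a log axis for the 44 tested members, colored by role, with a ring around the 8 members below an unadjusted *P* value of 0.05. Of the rings, 7 lie left of the dashed line at 10 TPM and below zero, and the members right of it scatter around zero except Il15 and Tnfrsf12a.

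The most abundant ligand was Il33, an alarmin that is stored in the nucleus and released from damaged cells, on chromosome 1 of rn5 from 255382760 to 255397661. Its mean level was 172 TPM, the highest of all members. It was at 273, 171 and 238 CPM in AL rats 61, 71 and 88 and at 330, 362 and 250 CPM in HD rats 64, 67 and 69. The groups overlapped in CPM, since HD rat 69 lay below AL rat 61. In TPM every HD rat (167.3 to 218.6) lay above every AL rat (122.7 to 163.5). The share of all genes separated in TPM was not counted. The AL and HD means were 227 ± 52.1 and 314 ± 57.8 CPM (SD, *n* = 3 each). The log2 fold change came to 0.47 ± 0.21 (SE, edgeR adjusted *P* = 0.491). Its receptor chain Il1rl1 (ST2), found on mast cells, regulatory T cells and innate lymphoid cells, was below the minimum with 6 to 21 counts in a rat. The second chain of that receptor, Il1rap, which also serves interleukin-1, was at 2.47 ± 0.970 CPM in the AL and 1.51 ± 0.669 CPM in the HD group (SD, *n* = 3 each), with overlapping groups.

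Il34, a tubular growth factor for macrophages that acts on the receptor Csf1r, was the second ligand in level with a mean of 61.4 TPM. It was almost the same in every rat, at 58.9, 58.6 and 61.9 CPM in AL rats 61, 71 and 88 and at 60.5, 61.0 and 55.1 CPM in HD rats 64, 67 and 69. Its log2 fold change was -0.02 with a standard error of 0.10. The receptor Csf1r, which is no member of the families and marks macrophages, was at 16.6, 51.0 and 34.7 CPM in AL rats 61, 71 and 88 and at 11.8, 13.5 and 19.4 CPM in HD rats 64, 67 and 69. In this pair the ligand thus stayed within 55.1 to 61.9 CPM, while 2 of the 3 AL rats were above every HD rat for the receptor (log2 fold change -1.19 ± 0.39, SE, edgeR adjusted *P* = 0.406).

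Among the abundant receptors, Tnfrsf21 (DR6), a death domain receptor, had a mean of 152 TPM and was at 390 ± 85.0 CPM in the AL and 474 ± 72.1 CPM in the HD group (SD, *n* = 3 each). Il4ra, the receptor chain of interleukin-4 that also takes part in the interleukin-13 receptor, followed with 104 TPM and was at 191, 247 and 224 CPM in AL rats 61, 71 and 88 and at 238, 255 and 252 CPM in HD rats 64, 67 and 69. Both overlapped between the groups, with log2 fold changes of 0.28 and 0.17 and standard errors of 0.19 and 0.13. Il4ra was thus at a high level in kidneys in which neither of its ligands Il4 and Il13 had a count. The partner chain Il13ra1 was at 54.7 ± 6.34 and 47.1 ± 7.19 CPM (SD, *n* = 3 each). Il11ra1, the receptor of interleukin-11, was steady at between 61.8 and 74.8 CPM in the 6 rats, and its ligand Il11 had at most 10 counts in a rat. Il3ra, Il10rb and Tnfrsf1a, the widely expressed TNF receptor with a death domain, had log2 fold changes of 0.05, -0.05 and 0.06 with standard errors of 0.16, 0.16 and 0.13. Il6st (gp130), the signaling chain shared by the interleukin-6 family, was at 112 ± 16.7 and 98.3 ± 10.5 CPM, and Tnfrsf14 (HVEM), a receptor of LIGHT, at 52.1 ± 6.06 and 41.0 ± 7.45 CPM in the AL and HD groups (SD, *n* = 3 each). Tnfrsf14 had overlapping groups in CPM and a log2 fold change of -0.34 (unadjusted *P* = 0.0661 from edgeR). In TPM every HD rat (26.9 to 34.8) lay below every AL rat (36.8 to 43.0) for this gene.

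Tnfrsf12a (Fn14), the receptor of TWEAK that injured tubules induce, was far apart from the others in 1 rat. It was at 148, 22.4 and 40.8 CPM in AL rats 61, 71 and 88 and at 48.0, 34.4 and 24.0 CPM in HD rats 64, 67 and 69. Rat 61 alone lay far above the others, which spanned the same range in both groups. The log2 fold change came to -0.99 ± 0.64 (SE, edgeR adjusted *P* = 0.643) and became 0.16 without rat 61. TWEAK itself (Tnfsf12) was at 34.6, 21.9 and 28.3 CPM in AL rats 61, 71 and 88 and at 13.6, 26.0 and 27.7 CPM in HD rats 64, 67 and 69, so rat 64 was the lowest. Tnfsf13 (APRIL), a factor for plasma cells whose gene lies 828 bases from Tnfsf12 on the same strand of chromosome 10, was highest in that rat. Its level in rat 64 was 58.8 CPM, against 23.0 and 18.2 CPM in the other HD rats and 17.5 to 23.9 CPM in the AL rats. The log2 fold change of 0.63 for Tnfsf13 became -0.05 without rat 64. Reads across both genes could have been divided between them by the counting, so their sum is also given, which was 72.4 CPM in rat 64 and between 45.8 and 57.3 CPM in the other 5 rats.

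The decoy receptor Tnfrsf11b (osteoprotegerin), which binds both RANKL and TRAIL, was the most abundant binding protein with a mean of 39.9 TPM. It was at 65.1, 78.2 and 54.7 CPM in AL rats 61, 71 and 88 and at 74.2, 97.1 and 62.2 CPM in HD rats 64, 67 and 69, with overlapping groups. The receptor of RANKL, Tnfrsf11a (RANK), was scarce. It had 12, 64.1 and 86.9 counts, or 0.953, 3.55 and 5.76 CPM, in AL rats 61, 71 and 88 and 5, 10.0 and 37.0 counts, or 0.424, 0.5 and 1.18 CPM, in HD rats 64, 67 and 69. Rats 71 and 88 were above every HD rat, and rat 61 lay below HD rat 69. The log2 fold change came to -2.21 ± 0.70 (SE, edgeR adjusted *P* = 0.406) and ranged from -2.86 to -1.62 with each rat left out in turn, and its unadjusted *P* value was above 0.05 without rat 67 or rat 88. RANKL (Tnfsf11) had at most 4 counts in a rat. TRAIL (Tnfsf10) was at 4.21, 6.54 and 5.69 CPM in AL rats 61, 71 and 88 and at 2.80, 4.45 and 3.55 CPM in HD rats 64, 67 and 69, where HD rat 67 lay just above AL rat 61. Its death receptor Tnfrsf10b had the opposite sign, with 4.12 ± 1.19 CPM in the AL and 5.67 ± 0.980 CPM in the HD group (SD, *n* = 3 each), and neither gene had an unadjusted *P* value below 0.05.

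Il15 and the shared chains of its receptor, Il2rb and Il2rg, were compared next, and none of them was called after adjustment. The chain Il15ra, which binds interleukin-15 itself, was not among the 98 genes that the rule gave. Il15, which sustains natural killer cells and memory T cells, was the only member with a mean of at least 10 TPM and an unadjusted *P* value below 0.05 (0.0183 from edgeR). Its listed transcript has 489 bases, so its mean of 13.6 TPM rests on few counts. Il15 had 53.0, 85.0 and 83.1 counts, or 4.21, 4.71 and 5.49 CPM, in AL rats 61, 71 and 88 and 31.0, 58.9 and 93.6 counts, or 2.63, 2.95 and 3.01 CPM, in HD rats 64, 67 and 69. The groups did not overlap, and the log2 fold change came to -0.74 ± 0.25 (SE, edgeR adjusted *P* = 0.406). Without rat 64 or rat 88 its unadjusted *P* value was above 0.05. Il2rb, the signaling chain shared by interleukin-2 and interleukin-15 on T cells and natural killer cells, had the smallest unadjusted *P* value of all members (0.00401). It had 24.0, 34.0 and 13.0 counts, or 1.91, 1.88 and 0.860 CPM, in AL rats 61, 71 and 88 and 5, 6 and 12 counts, or 0.424, 0.300 and 0.384 CPM, in HD rats 64, 67 and 69. The lowest AL rat was above the highest HD rat, and the log2 fold change came to -2.06 ± 0.50 (SE, edgeR adjusted *P* = 0.368). Rat 71 alone brought the gene past the minimum count, and without it the gene was not tested. In the other 5 fits that left out 1 rat the log2 fold change lay between -2.34 and -1.90. The common gamma chain Il2rg, the third part of this receptor, overlapped between the groups at 4.13, 7.15 and 2.45 CPM in AL rats 61, 71 and 88 and 2.63, 3.30 and 5.82 CPM in HD rats 64, 67 and 69.

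In the whole tissue, fewer cells of a type and less RNA per cell cannot be told apart. Il10ra, the ligand-binding chain of the interleukin-10 receptor on leukocytes, had 9, 57.0 and 24.0 counts in AL rats 61, 71 and 88 and 1, 5 and 23.0 counts in HD rats 64, 67 and 69. In CPM, AL rat 61 (0.715) lay just below HD rat 69 (0.735), so the groups overlapped, and the log2 fold change came to -2.19 ± 0.78 (SE, edgeR adjusted *P* = 0.408). It missed the minimum count without rat 71, and its unadjusted *P* value was above 0.05 without rat 64 or 67. The other chain, Il10rb, which is widely expressed and serves several cytokines, was at 37.1 ± 2.81 and 35.9 ± 6.67 CPM (SD, *n* = 3 each). Tnfrsf1b, the TNF receptor of leukocytes and endothelium without a death domain, was at 1.99, 5.71 and 3.38 CPM in AL rats 61, 71 and 88 and at 1.27, 1.45 and 1.92 CPM in HD rats 64, 67 and 69. These groups did not overlap, although rats 61 and 69 were close, and the log2 fold change came to -1.24 ± 0.44 (SE, edgeR adjusted *P* = 0.408). Its unadjusted *P* value was above 0.05 without rat 64, 67 or 71. Tnfrsf26, a further TNF receptor family gene, was at 3.81, 4.10 and 6.15 CPM in AL rats 61, 71 and 88 and at 1.1, 2 and 2.49 CPM in HD rats 64, 67 and 69. It was the member whose unadjusted *P* value stayed below 0.05 in all 6 fits that left out 1 rat, and its log2 fold change came to -1.30 ± 0.38 (SE, edgeR adjusted *P* = 0.398).

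Il28ra, the older symbol of the receptor chain for the lambda interferons (Ifnlr1), was at 2.38, 1.88 and 2.51 CPM in AL rats 61, 71 and 88 and at 1.02, 0.899 and 1.31 CPM in HD rats 64, 67 and 69. All AL rats were above all HD rats, but without rat 67 or rat 88 the unadjusted *P* value was above 0.05. Its log2 fold change came to -1.05 ± 0.35 (SE, edgeR adjusted *P* = 0.406). Tnfsf15 (TL1A), an endothelial ligand that stimulates T cells, was at 1.43, 0.776 and 2.18 CPM in AL rats 61, 71 and 88 and at 0.679, 0.400 and 0.416 CPM in HD rats 64, 67 and 69, from at most 33.0 counts in a rat. Its log2 fold change came to -1.58 ± 0.54 (SE, edgeR adjusted *P* = 0.406). It missed the minimum count without rat 88, and its unadjusted *P* value was above 0.05 without rat 67 or 69. Its receptor Tnfrsf25 (DR3), which reached the minimum count in rat 71 alone, was at 1.70 ± 0.328 CPM in the AL and 0.856 ± 0.414 CPM in the HD group (SD, *n* = 3 each), with an unadjusted *P* value of 0.0800 from edgeR. Counted in CPM over all 44 tested members, every HD rat lay below every AL rat in 7 (Il15, Il28ra, Il2rb, Tnfrsf1b, Tnfrsf25, Tnfrsf26 and Tnfsf15), where 7.01% of all tested genes did so. Il2rb, Tnfrsf25 and Tnfsf15 among them reached the minimum count in a single AL rat. Of the members that reached it in both groups 4 of 39 (10.3%) were separated this way, against 6.99% of all such genes. In CPM every HD rat lay above every AL rat in 0 members, where 7.24% of all tested genes did so. For a single gene, an exact permutation test of 3 against 3 rats allows no two-sided *P* value under 0.1.

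**Figure D3:**
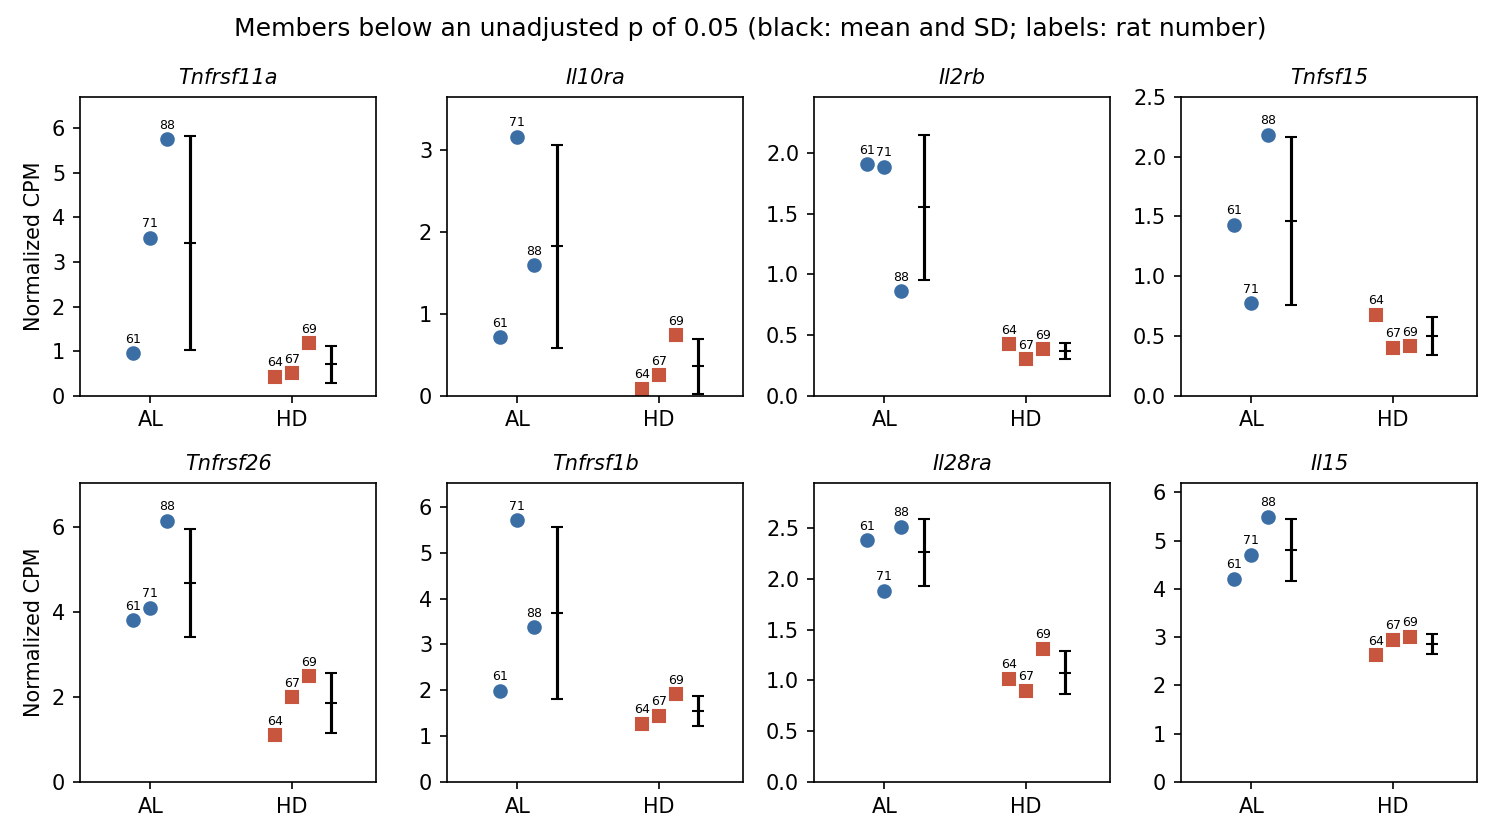
Normalized CPM by rat for the 8 members with an unadjusted *P* value below 0.05, with AL rats as circles, HD rats as squares, rat numbers above the points and the mean and SD of each group in black. In 6 of the panels all HD rats lie below all AL rats, and in Tnfrsf11a and Il10ra rat 61 lies at the level of rat 69.

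The sequences before the transcription starts of 4 of these genes are shown because they were lower together, were separated between the groups and reached the minimum count in both groups. They are the 250 bases before the start, 5′ to 3′, from RefSeq on build GRCr8, which is not the build of the count files. Of the 44 tested members 34 had a promoter in that table. The stretches are chr19:42544456-42544705 on the plus strand for Il15, chr5:153203347-153203596 on the plus strand for Il28ra, chr5:162387412-162387661 on the minus strand for Tnfrsf1b and chr1:208252431-208252680 on the minus strand for Tnfrsf26. Capitals mark matches to the interferon-stimulated response element (a pair of GAAA runs 2 bases apart), the STAT element TTCNNNGAA or the NF-kappaB consensus on either strand.
Il15: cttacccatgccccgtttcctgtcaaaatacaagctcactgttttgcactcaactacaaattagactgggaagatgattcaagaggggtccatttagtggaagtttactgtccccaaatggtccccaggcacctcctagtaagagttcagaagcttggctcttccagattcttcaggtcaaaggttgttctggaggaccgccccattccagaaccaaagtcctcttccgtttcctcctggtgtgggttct
Il28ra: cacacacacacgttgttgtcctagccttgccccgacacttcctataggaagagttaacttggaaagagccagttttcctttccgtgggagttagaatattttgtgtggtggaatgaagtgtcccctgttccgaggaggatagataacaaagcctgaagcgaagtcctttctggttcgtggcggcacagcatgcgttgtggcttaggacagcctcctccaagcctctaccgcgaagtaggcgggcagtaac
Tnfrsf1b: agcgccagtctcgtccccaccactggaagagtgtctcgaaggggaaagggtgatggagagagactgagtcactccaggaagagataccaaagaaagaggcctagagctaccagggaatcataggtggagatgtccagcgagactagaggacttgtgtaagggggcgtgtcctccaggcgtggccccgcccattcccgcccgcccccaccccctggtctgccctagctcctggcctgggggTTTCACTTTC
Tnfrsf26: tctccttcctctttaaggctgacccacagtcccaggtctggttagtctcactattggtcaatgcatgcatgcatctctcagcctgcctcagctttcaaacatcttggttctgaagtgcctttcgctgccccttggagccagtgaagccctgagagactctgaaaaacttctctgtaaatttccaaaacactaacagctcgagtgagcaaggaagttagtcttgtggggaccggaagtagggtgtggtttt
The interferon-stimulated element was found in Tnfrsf1b, at the end of the stretch, and none of the 3 motifs was found in the other sequences shown. Over the 34 promoters this element was present in 3 members (Il12rb1, Il6st and Tnfrsf1b), against 3.41% of the 33469 promoters in the table. The STAT element was present in 2 members (Il12rb2 and Tnfrsf12a), against 7.67% of all promoters, and the NF-kappaB consensus in 3 (Il12rb2, Il1r1 and Il1rap), against 6.33%. A match of letters is not evidence of binding, and Il6st and Il12rb1, which hold the same element as Tnfrsf1b, had log2 fold changes of -0.19 and -0.15.

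The interleukin-1 and interleukin-18 systems were present at low levels. Il1b, the main secreted interleukin-1 of macrophages and neutrophils, was at 2.94, 4.99 and 1.12 CPM in AL rats 61, 71 and 88 and at 3.65, 1.65 and 2.72 CPM in HD rats 64, 67 and 69. The rats of both groups were mixed, with a log2 fold change of -0.19 and a standard error of 0.55. Its receptor Il1r1 was at 3.27 ± 0.910 and 2.02 ± 0.873 CPM and the antagonist Il1rn at 4.16 ± 2.48 and 2.33 ± 0.630 CPM in the AL and HD groups (SD, *n* = 3 each). Il1rn was highest in rat 71 (6.98 CPM), and its log2 fold change of -0.84 became -0.23 without it. Il18, which the inflammasome protease caspase-1 activates, was at 1.51 ± 0.365 CPM in the AL and 1.95 ± 1.08 CPM in the HD group (SD, *n* = 3 each), and its binding protein Il18bp was at 4.55 ± 0.574 and 3.85 ± 0.600 CPM. None of these genes had an unadjusted *P* value below 0.05. Among the genes of the same pathway, Casp1, which encodes caspase-1, and Pycard, the inflammasome adaptor, were below it and lower in every HD rat than in every AL rat, with log2 fold changes of -1.05 (standard error 0.39) and -1.37 (standard error 0.43). Traf6 and Tollip of that pathway were higher in every HD rat than in every AL rat. Their log2 fold changes were 0.28 and 0.11, with unadjusted *P* values of 0.231 and 0.302 from edgeR. The receptors of interleukin-17, a cytokine of T cells that acts on epithelia, had log2 fold changes of -0.12 for Il17ra (standard error 0.14) and 0.26 for Il17rc (standard error 0.21), while Il17a and Il17f had at most 2 counts in a rat. Il6r, the ligand-binding chain of interleukin-6, was at 3.65, 6.87 and 7.08 CPM in AL rats 61, 71 and 88 and at 1.61, 2.60 and 6.07 CPM in HD rats 64, 67 and 69, with overlapping groups. The other tested members (Il12rb2, Il17rb, Il17rd, Il17re, Il21r and Tnfrsf9) were all lower by sign, with log2 fold changes between -1.38 for Il17rd and -0.04 for Il17re and unadjusted *P* values of at least 0.0611.

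The signaling genes downstream of these receptors are read against the 10.6% of all tested genes with an unadjusted *P* value below 0.05. Of the JAK, STAT and SOCS genes, 2 of 18 (11.1%) had an unadjusted *P* value below 0.05, Stat5a and Stat6, both lower in the HD group by log2 fold changes of -0.41 and -0.62. The list had a median of -0.05. Of the interleukin-1 receptor adaptors and inflammasome genes 2 of 14 (14.3%) were below that value, Casp1 and Pycard, and of the NF-kappaB genes 0 of 8. Among the TNF receptor adaptors it was 2 of 13 (15.4%), both higher in every HD rat than in every AL rat, namely Cflar, an inhibitor of caspase-8, with 0.41 (standard error 0.13), and Tnip1, an inhibitor of NF-kappaB signaling, with 0.56 (standard error 0.15). The medians of these lists lay between -0.10 and -0.01. Of the related cytokine genes 3 of 13 (23.1%) were below the value. With 8 to 18 genes in a list, 1 gene moves these shares by several percentage points. Csf2rb, the signaling chain that Il3ra shares with the receptors of GM-CSF and interleukin-5, was higher at 237, 189 and 319 CPM in HD rats 64, 67 and 69 than at 150, 159 and 159 CPM in AL rats 61, 71 and 88, whereas Il3ra itself hardly differed. Lepr (log2 fold change -2.30) and Csf1r were lower. None of these genes was called after adjustment by edgeR, and DESeq2 called Lepr alone (adjusted *P* = 0.0430). TNF superfamily genes under other symbols were scarce as well: Tnf had 6, 24 and 22 counts in AL rats 61, 71 and 88 and 5, 5 and 10 counts in HD rats 64, 67 and 69 and was not tested. All 5 tested genes of that list were lower in the HD group by sign, with 0 below an unadjusted *P* value of 0.05, and the abundant receptor Ltbr among them was at 88.4 to 99.3 CPM in every rat.

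Markers of leukocytes were lower in the HD group, as the scarce receptors were. All 4 tested markers of leukocytes in general, 8 of 10 of macrophages and monocytes and 5 of 6 of T cells were lower in the HD group at an unadjusted *P* value below 0.05, where 5.94% of all tested genes were. With edgeR none of them was called after adjustment, and the smallest adjusted *P* value was 0.368. DESeq2 called Ptprc (adjusted *P* = 0.0133), Aif1 (0.0128) and Lyz2 (0.0213), where it called 1.58% of all genes. Of the 6 tested T cell markers, Cd2, Cd247, Cd3e, Cd3g and Cd8a reached the minimum count in AL rat 71 alone, which favors lower values in the HD group for them. Cd4 alone of this list reached it in both groups, as all leukocyte and macrophage markers tested did. Cd4 had 22, 349 and 86 counts in AL rats 61, 71 and 88 and 13, 33 and 114 in HD rats 64, 67 and 69. The macrophage marker Emr1 had 15, 335 and 62 counts in these AL rats and 12, 23 and 82 in these HD rats. Which cells held the Cd4 RNA was not tested. In CPM, 2 of the 10 tested macrophage markers (Aif1 and Lyz2) were lower in every HD rat than in every AL rat, and 8 overlapped. Lyz2 had the most counts of that list in every rat. The summed level of the macrophage markers was 187, 727 and 490 TPM in AL rats 61, 71 and 88 and 68.9, 89.6 and 183 TPM in HD rats 64, 67 and 69. That of the T cell markers ranged from 9.23 to 43.2 TPM in the AL and from 3.26 to 7.54 TPM in the HD group, and that of the leukocyte markers from 23.5 to 72.0 and from 7.46 to 26.4 TPM. In all 3 sums rat 71 was the highest, rat 88 followed and rat 64 was the lowest. Rats 61 and 69 were next to each other in the middle, with rat 69 above rat 61 in the leukocyte sum only, and no marker was at 0 in all 6 rats. The T cell marker Cd3e had 7, 34 and 7.8 counts in AL rats 61, 71 and 88 and 0, 0 and 6 in HD rats 64, 67 and 69. Cd3d, which was not tested, had 3, 22 and 6 counts in these AL rats and 4, 3 and 8 in these HD rats. The 3 B cell markers in the files summed to at most 1.98 TPM and were not tested. Neutrophil markers ranged from 2.34 to 3.72 TPM in the AL and from 6.56 to 26.0 TPM in the HD group, with rat 64 the highest. Different genes made up this sum in different rats. S100a9 had 55, 14 and 12 counts in HD rats 64, 67 and 69 and 3, 14 and 9 in AL rats 61, 71 and 88. Mpo had 1, 92 and 150 counts in these HD rats and 14, 1 and 3 in these AL rats. Both overlapped between the groups in CPM. These 2, the only ones tested, reached the minimum count in HD rats alone, and neither had an unadjusted *P* value below 0.05. Podocyte markers were higher in every HD rat (98.5 to 229 TPM) than in the AL rats (20.4 to 52.9 TPM). Endothelial markers, which bear on Tnfsf15 and Tnfrsf1b, summed to 38.9 to 109 TPM in the AL and to 26.7 to 93.4 TPM in the HD rats, with 4 of 5 lower by sign and 0 below an unadjusted *P* value of 0.05. The sums of the thick ascending limb (3050 to 3580 and 2069 to 3548 TPM) and the collecting duct (832 to 1270 and 812 to 1073 TPM) overlapped between the AL and HD rats. In CPM, 1 marker of each list was lower in every HD rat than in every AL rat. These were Slc12a1 of the limb (log2 fold change -0.86) and Avpr2 of the duct (-0.54), both with an edgeR adjusted *P* of 0.409. The other markers of these lists overlapped. All 3 limb markers and 2 of 4 duct markers were lower by sign. The part of these cells in the values of Il2rb, Il10ra, Tnfrsf1b, Tnfrsf11a and the other scarce members was not tested.

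**Figure D4:**
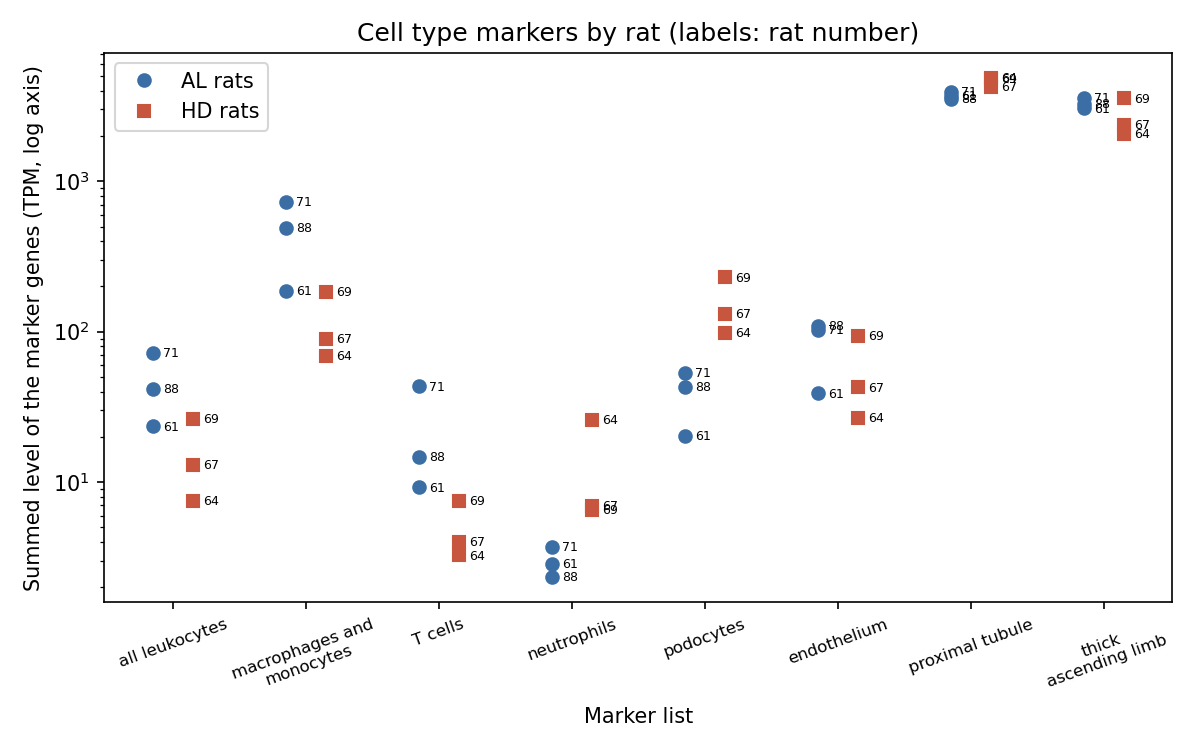
Summed level in TPM, on a log axis, of the marker genes of 8 cell types in each rat, with AL rats as circles, HD rats as squares and the rat number beside each point. The leukocyte, macrophage and T cell sums lie lower in the HD rats, with AL rat 61 and HD rat 69 next to each other, the neutrophil and podocyte sums lie higher, and every HD rat lies above every AL rat in the proximal tubule sum as well, while the endothelial and thick ascending limb sums overlap.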

How the data were processed

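Poly(A)-selected kidney RNA of 6 rats was sequenced on an Illumina instrument, 1 library per rat with none pooled. Per the labels and the study's methods, the authors ran RSEM 1.1.15 with default settings on UCSC gene models of build rn5. The authors deposited an estimated count per transcript without normalization, posterior means of these counts, and TPM values scaled to transcript length and library size. Read filters are not given in the sources used here. Columns of FPKM and of other expression estimates with their bounds were not used here.

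Counts were summed per gene symbol and rounded, and genes that reached 30 counts in any rat were kept. The diets were compared by edgeR 4.0.16 (R 4.3.3, quasi-likelihood test, TMM, diet as the only factor) over all 11553 genes, with Benjamini-Hochberg adjustment and a threshold of 0.05. The standard error is the absolute log2 fold change divided by the square root of F. The common biological coefficient of variation was 0.242. DESeq2 1.42.0, the study's tool, was an alternative. The fits were tested on simulated data. TPM served for levels and marker sums, and for the ranges by rat where the text or a caption names it. No test used TPM.

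Counts among genes that reached the minimum in both groups were added after the data were seen. The members, gene lists, roles and rules were chosen with earlier results of these data known. Named members are those below an unadjusted *P* value of 0.05, the 6 ligands and 8 receptors highest in TPM, the 3 largest differences in each direction, a fixed set of well-known members and their ligand or receptor partners. Il16, Il13ra1, Il12rb1, the interleukin-17 receptors, Il21r, Tnfrsf9 and, outside the families, Ltbr, Traf6 and Tollip were named after their values were seen. Python 3.11.15 with pandas 2.3.3 and matplotlib 3.10.9 served for tables and plots.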

Additional observations from a re-analysis of the deposited data

How the results depend on the processing

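In no alternative did a member have an adjusted *P* value of at most 0.05. RLE normalization, a robust fit and posterior mean counts left the counts and medians within their limits. With library size alone, where the median over all genes became -0.074 instead of 0.0067, 9 members were lower and 1 (Il33) was higher at an unadjusted *P* value below 0.05, the median of the ligands was -0.34, and Il3ra (-0.024) and Tnfrsf1a (-0.0215) turned sign. DESeq2 also had 1 higher member. When every rat had to reach 10 counts, 36 members were tested, 5 were lower at an unadjusted *P* value below 0.05 and the medians of the ligands and receptors were -0.22 and -0.23. With any count above 0, 85 members were tested, 62 lower and 23 higher by sign and 1 higher at that value, and the median of the ligands was -0.84, since many members with few counts entered.

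Leaving out 1 rat at a time, the number of members lower at an unadjusted *P* value below 0.05 ranged from 5 (without rat 64, 67 or 88) to 11 (without rat 61 or 69), and that of higher members from 0 to 2 (without rat 69, Il33 and Tnfsf13). The number lower by sign ranged from 25 to 33 and the number higher from 11 to 15. The median of the ligands ranged from -0.35 to -0.19 and that of the receptors from -0.49 to -0.13, the last without rat 71. Signs turned for Tnfrsf12a (from -1.41 to 0.16, the last without rat 61), Tnfsf13 (from -0.053 without rat 64 to 0.94), Il1b (from -0.58 to 0.06 without rat 67 and 0.40 without rat 71), Il2rg (from -0.62 to 0.27 without rat 71), Il3ra (from -0.11 without rat 71 to 0.14), Il18 (from -0.14 without rat 69 to 0.68), Tnfrsf1a (from -0.024 without rat 69 to 0.17), Il34 (from -0.050 to 0.01 without rat 88 and 0.028 without rat 69) and Il10rb (from -0.15 to 0.0009 without rat 71 and 0.10 without rat 69). The cause of these shifts was not tested. No paired analysis was possible because the labels give each rat a number of its own and no number is shared between the groups. Members with few counts have wide errors, and 12499945 counts in rat 64 limit them most. At that depth 3 counts correspond to 0.240 CPM.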

Other observations

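Only Il1rap and Il1rl1 were listed with more than 1 transcript. For Il1rap, the accessory chain of the interleukin-1 and interleukin-33 receptors, the transcript of 1862 bases took 8.35, 53.0 and 39.2 counts in AL rats 61, 71 and 88 and 13.0, 15.4 and 53.0 counts in HD rats 64, 67 and 69, and the transcript of 2820 bases took at most 18.0 counts. For Il1rl1 neither transcript had more than 13.7 counts in a rat, so the forms of this receptor could not be compared between the diets.

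Il16, which encodes a chemoattractant for CD4 cells, spread widely within both groups, at 9.37, 23.1 and 7.68 CPM in AL rats 61, 71 and 88 and at 1.78, 11.5 and 2.94 CPM in HD rats 64, 67 and 69. Its log2 fold change came to -1.30 ± 0.72 (SE, edgeR adjusted *P* = 0.578). It was -2.47 without rat 67 and -0.65 at the other end of the fits that left out 1 rat.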
